A study of Mus musculus with 2 samples.

Results

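The kappa V segments are the variable gene segments of the immunoglobulin kappa light chain. They were chosen by name and annotation: rows of the deposited gene table whose symbol starts with Igkv and whose transcript type contains IG_V_gene. This gave 100 of 55401 rows, of which 97 are typed IG_V_gene alone and 3 (Igkv4-71, Igkv4-62 and Igkv4-54) also protein_coding. All lie on chromosome 6 (mm10) between 67555497 and 70704177, a span of 3.15 Mb that ends 0.0223 Mb before Igkc, the constant gene of the kappa chain.

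A developing B cell cuts its DNA at the kappa locus and joins a single V segment to a J segment. The joined V-J exon is spliced to Igkc, so that each mature B cell or plasma cell normally makes a single light chain, kappa or lambda, that carries the sequence of the V segment it joined. The segments are named by family (the number before the hyphen) and by place in the locus (the number after it, which falls towards Igkc). Segments on the same strand as Igkc are joined by deletion of the DNA between, and those on the opposite strand by inversion. Plasma cells hold very large amounts of immunoglobulin mRNA.

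Poly(A) RNA was sequenced from myeloid-derived suppressor cells (MDSCs), immature myeloid cells that restrain T cells in tumours. Magnetic beads were used to take them from 8-week-old C57BL/6 mice with tumours of MC38, a mouse colon carcinoma line, and the cells were kept with MC38 cells for 24 h. The mice either carried LysM-cre and floxed Mettl3 alleles (1 library) or carried the same floxed alleles without Cre (1 library). LysM-cre is a Cre recombinase at the lysozyme 2 locus that acts in myeloid cells, and Mettl3 encodes the enzyme that writes N6-methyladenosine on mRNA. One label of the LysM-cre sample names MC39 where the other sample's names MC38. How many mice stood behind each library is not in the labels. With 1 library per genotype no difference has a replicate check and no test is given. Each ratio is that of CPM (counts over the library total), LysM-cre over floxed control, and its exact 95% interval covers counting error only.

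The libraries held 59393864 counts (LysM-cre) and 59506878 counts (floxed control). Mettl3 itself was not lower beyond counting error, with 1333 counts in the Cre sample and 1413 in the floxed control (ratio 0.945, 95% interval 0.876 to 1.02), so the Cre sample is called "the library labelled LysM-cre". Markers of the labelled cell type were abundant: 8 listed neutrophil and MDSC markers summed to 8411 FPKM (counts scaled for gene length and library depth) in the library labelled LysM-cre and 9372 FPKM in the floxed control, and 6 monocyte and macrophage markers to 3866 FPKM (LysM-cre) and 6171 FPKM (floxed control). Of the 8 neutrophil and MDSC markers 2 were higher and 6 lower. Of the 6 monocyte and macrophage markers 4 were higher and 2 lower. Most of their sum was Lyz2, the locus that carries Cre, with 3006 FPKM (LysM-cre) and 5400 FPKM (floxed control). Cx3cr1 differed most of the 6, with 18508 counts (LysM-cre) and 1856 (floxed control) (ratio 9.99, 95% interval 9.52 to 10.5). Ccr2, Adgre1 and Csf1r were higher by less, with ratios of 1.26, 1.11 and 1.05. RNA of B cell marker genes was present as well. All 10 listed B cell markers had counts. In the library labelled LysM-cre 1 was higher and 9 were lower, and their summed level was 230 FPKM against 258 FPKM in the floxed control. Of 10 plasma cell markers, 3 were higher and 7 lower, and their summed level of 667 FPKM (LysM-cre) against 372 FPKM (floxed control) came mostly from Jchain (555 FPKM in the library labelled LysM-cre and 255 FPKM in the floxed control). Jchain encodes the chain that joins secreted antibody units. Of 6 genes that act in light chain assembly or earlier B cell stages, 2 had 100 or more counts over both libraries: Vpreb3, with 131 (LysM-cre) and 105 (floxed control), and Dntt, with 128 (LysM-cre) and 202 (floxed control). Vpreb1 had 6 (LysM-cre) and 8 (floxed control) counts, Igll1 was at 0 in both libraries, and the recombinase genes Rag1 (32 counts in the library labelled LysM-cre, 12 in the floxed control) and Rag2 (0 in the library labelled LysM-cre, 11 in the floxed control) were near 0. In these bulk samples fewer B lineage cells and less immunoglobulin RNA per cell cannot be told apart, and the part of these cells in the results below was not tested.

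The sequences of the segments show why counts of single segments carry a limit. The V exons (the exon that holds the variable domain, 286 to 322 bases long in GENCODE M21) are related copies. Over 4950 pairs the median identity was 67.6%, but each segment's closest relative among the 100 stood at a median of 94.5%, and 46 segments had a relative at 95% or more. The sources used here do not say how the authors assigned reads that match several segments, so values of these segments are uncertain. The first pair shown holds the segments at ranks 2 and 3 by counts in the library labelled LysM-cre. The stretch is the last 240 bases of the V exon, and capitals mark the bases that differ between the members of the pair, 9 of the 10 differences over 313 aligned bases. Igkv1-117 lies at chr6:68121588-68121827 (plus strand) and Igkv1-110 at chr6:68271028-68271267 (plus strand).
Igkv1-117: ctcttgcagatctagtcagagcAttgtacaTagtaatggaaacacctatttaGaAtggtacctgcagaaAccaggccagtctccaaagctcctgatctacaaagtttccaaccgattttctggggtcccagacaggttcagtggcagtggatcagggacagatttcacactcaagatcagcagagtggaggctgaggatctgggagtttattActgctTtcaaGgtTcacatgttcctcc
Igkv1-110: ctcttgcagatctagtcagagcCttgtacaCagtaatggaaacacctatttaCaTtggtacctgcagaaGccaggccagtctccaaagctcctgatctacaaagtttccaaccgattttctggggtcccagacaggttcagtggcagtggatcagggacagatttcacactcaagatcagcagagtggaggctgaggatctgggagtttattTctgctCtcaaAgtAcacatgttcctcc

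The second pair holds Igkv1-135, the segment with the most counts in the floxed control library, and its closest relative Igkv1-133, with 10 of their 11 differences over 313 aligned bases in the stretch. They lie at chr6:67610269-67610508 and chr6:67725422-67725661 (plus strand). The third pair, Igkv3-10 and Igkv3-5, is 98.0% identical and differed in opposite directions between the libraries, and 5 of its 6 differences are in the stretch. They lie at chr6:70572991-70573230 and chr6:70663656-70663895 (plus strand). Capitals again mark the differences within the pair.
Igkv1-135: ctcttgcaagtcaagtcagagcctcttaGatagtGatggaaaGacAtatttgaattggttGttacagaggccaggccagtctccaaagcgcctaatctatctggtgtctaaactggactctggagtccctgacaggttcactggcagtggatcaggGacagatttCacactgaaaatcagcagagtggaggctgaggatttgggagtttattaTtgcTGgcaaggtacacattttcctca
Igkv1-133: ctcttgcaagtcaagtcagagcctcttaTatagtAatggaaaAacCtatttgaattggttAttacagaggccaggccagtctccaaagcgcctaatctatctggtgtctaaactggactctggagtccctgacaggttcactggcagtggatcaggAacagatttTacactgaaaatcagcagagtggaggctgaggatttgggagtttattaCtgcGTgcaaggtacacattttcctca
Igkv3-10: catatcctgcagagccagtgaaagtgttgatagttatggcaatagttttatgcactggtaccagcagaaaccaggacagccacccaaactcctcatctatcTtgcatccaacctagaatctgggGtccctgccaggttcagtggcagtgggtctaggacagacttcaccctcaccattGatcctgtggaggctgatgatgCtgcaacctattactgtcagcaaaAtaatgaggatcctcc
Igkv3-5: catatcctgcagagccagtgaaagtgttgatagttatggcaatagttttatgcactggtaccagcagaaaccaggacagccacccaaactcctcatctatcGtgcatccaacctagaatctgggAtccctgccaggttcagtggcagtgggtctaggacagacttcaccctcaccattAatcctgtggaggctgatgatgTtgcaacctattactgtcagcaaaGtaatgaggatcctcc

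The 3′ end of the V exon supplies the start of CDR3, the part of the light chain that varies most at the join. Its last 60 bases are shown for Igkv10-96, the segment with the most counts in the library labelled LysM-cre, and for 4 segments named below for their high or low ratios, chosen after their values were seen. Capitals mark TATTACTG, which in frame encodes tyrosine, tyrosine and the start of the conserved cysteine codon before CDR3. The motif was found in the last 60 bases of 67 of the 100 V exons. On either strand it was in 66.7% of annotated kappa V transcripts, 53.4% of heavy chain V transcripts, 0 of 4 lambda V transcripts and 0.234% of 141244 transcripts of other kinds. Igkv10-96 (chr6:68631963-68632022, minus strand) and Igkv1-122 (chr6:68017429-68017488, plus strand) lack these letters, while Igkv9-129 (chr6:67840207-67840266, plus strand), Igkv4-50 (chr6:69700767-69700826, minus strand) and Igkv4-63 (chr6:69377944-69378003, minus strand) hold them.
Igkv10-96: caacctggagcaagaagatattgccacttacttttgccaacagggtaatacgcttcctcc
Igkv9-129: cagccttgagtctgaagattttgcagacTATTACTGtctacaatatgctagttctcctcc
Igkv4-50: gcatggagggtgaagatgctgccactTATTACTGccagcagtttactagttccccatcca
Igkv1-122: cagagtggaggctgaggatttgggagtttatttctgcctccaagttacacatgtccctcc
Igkv4-63: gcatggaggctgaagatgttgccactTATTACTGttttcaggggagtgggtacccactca

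The kappa V segments took a slightly smaller share of the library labelled LysM-cre. They held 230029 counts there (0.387% of all counts, 95% interval 0.386 to 0.389) and 268894 counts in the floxed control library (0.452%, 0.450 to 0.454), a ratio of 0.857 (95% interval 0.852 to 0.862). All immunoglobulin rows together, kappa V segments included, had 1763878 counts (LysM-cre) and 2014138 (floxed control), a ratio of 0.877. Much of that difference lay in a single row, Ighm, the constant gene of IgM. It had 170979 counts (LysM-cre) and 358894 (floxed control) (ratio 0.477), so the immunoglobulin total is not an even background. As a part of all immunoglobulin counts the kappa V segments stood at 13.0% in the library labelled LysM-cre and 13.4% in the floxed control library (ratio 0.977). The heavy chain V segments, which encode the variable part of the partner chain, had a ratio of 0.884, and the 3 lambda V segments one of 0.707. Kappa made up 94.4% of light chain V counts in the library labelled LysM-cre and 93.3% in the floxed control library. Igkc differed less than the segments joined to it, with 470100 counts in the library labelled LysM-cre and 499014 in the floxed control (ratio 0.944, 95% interval 0.940 to 0.948). There were 0.489 kappa V counts per Igkc count in the library labelled LysM-cre and 0.539 in the floxed control library. The 5 Igkj rows, short J segments, held only 124 counts (LysM-cre) and 142 counts (floxed control) together.

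No single segment dominated either library. The most counted was Igkv10-96 in the library labelled LysM-cre, with 6.55% of kappa V counts (95% interval 6.45 to 6.65), and Igkv1-135 in the floxed control library, with 6.94% (6.85 to 7.04). An even split over 100 segments would give 1% each. The highest 3 segments together held 18.8% of kappa V counts in the library labelled LysM-cre and 18.9% in the floxed control library, and the highest 10 held 38.5% (LysM-cre) and 44.1% (floxed control). It took 16 segments in the library labelled LysM-cre and 13 in the floxed control library to reach 50% of kappa V counts, and 50 (LysM-cre) and 47 (floxed control) to reach 90%. The effective number of segments, the inverse of the summed squared shares, was 39.4 in the library labelled LysM-cre (95% counting interval 39.1 to 39.6) and 34.9 in the floxed control library (34.7 to 35.1). Counts were spread a little more evenly in the library labelled LysM-cre, and in the rank plot the curves part mostly at ranks 4 to 9. With near-identical segments (linked at 95% identity or more, which puts 13 Igkv4 segments in a single group) summed, the effective numbers were 22.8 (LysM-cre) and 22.1 (floxed control). The heavy chain V segments had effective numbers of 46.3 in the library labelled LysM-cre and 43.8 in the floxed control library. Their set is larger (113 listed segments against 100), which can raise this number, and their near-identical segments were not summed.

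**Figure D1:**
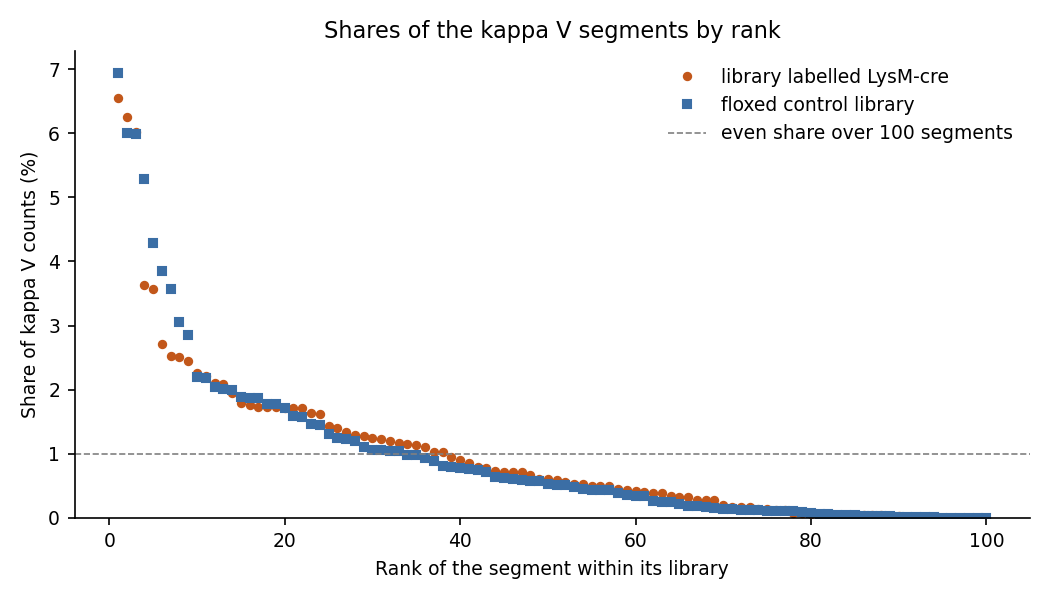
Share of kappa V counts (%) of each of the 100 segments by its rank within its library, with circles for the library labelled LysM-cre and squares for the floxed control library, with the even share of 1% as a dashed line. The curves start at 6.55% (LysM-cre) and 6.94% (floxed control) and differ most at ranks 4 to 9, where the floxed control library is higher.

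The 3 leading segments outside Igkv1-135 were the same in both libraries and close to level. Igkv10-96 (chromosome 6, 68631963 to 68632442) had 629 FPKM in the library labelled LysM-cre and 673 FPKM in the floxed control library, on 15060 counts (LysM-cre) and 16148 (floxed control) (ratio 0.934, 95% interval 0.914 to 0.955). Igkv1-117 (68121046 to 68121827) had 534 FPKM (LysM-cre) and 597 FPKM (floxed control) (ratio 0.894, 0.874 to 0.915). Igkv1-110 (68270485 to 68271267) had 518 FPKM (LysM-cre) and 531 FPKM (floxed control) (ratio 0.975, 0.953 to 0.999). The last 2 are the near-identical pair printed first, and their summed ratio was 0.932. A read assigned to the wrong member of the pair does not change this sum.

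Below these leaders the order changed. Of the 10 most counted segments of each library 7 were shared, 70% of either list, and of the 20 most counted 14. Igkv1-135 (67609713 to 67610508) was at rank 5 in the library labelled LysM-cre with 313 FPKM and first in the floxed control library with 709 FPKM, on 8229 counts (LysM-cre) and 18664 (floxed control) (ratio 0.442, 95% interval 0.430 to 0.453). Its relative Igkv1-133 had the other direction, with 950 counts in the library labelled LysM-cre and 494 in the floxed control library. The pair together still had a ratio of 0.480. Igkv4-59 had 198 FPKM in the library labelled LysM-cre and 469 FPKM in the floxed control library (ratio 0.421, 0.407 to 0.436), and Igkv8-21 had 116 FPKM (LysM-cre) and 300 FPKM (floxed control) (ratio 0.387, 0.371 to 0.404). Igkv6-25 had 109 FPKM (LysM-cre) and 233 FPKM (floxed control) (ratio 0.466), Igkv9-120 had 221 FPKM (LysM-cre) and 406 FPKM (floxed control) (0.543), Igkv3-4 had 241 FPKM (LysM-cre) and 431 FPKM (floxed control) (0.558), and Igkv15-103 had 232 FPKM (LysM-cre) and 328 FPKM (floxed control) (0.707). Igkv4-59, Igkv6-25 and Igkv9-120 each have a relative at 95% identity or more, so their values are uncertain.

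The exceptions among the top lists were Igkv6-15, Igkv8-30 and Igkv5-43, all with ratios above 1. Igkv6-15 had 361 FPKM in the library labelled LysM-cre and 236 FPKM in the floxed control library (ratio 1.53, 95% interval 1.48 to 1.58), and it too has a near-identical relative. Igkv8-30 had 230 FPKM (LysM-cre) and 172 FPKM (floxed control) (ratio 1.33), and Igkv5-43 had 247 FPKM (LysM-cre) and 199 FPKM (floxed control) (ratio 1.24). Igkv5-43 is 99.0% identical to Igkv5-45, which had the other direction (763 counts in the library labelled LysM-cre and 1184 in the floxed control library). The 13 segments in either top list were thus 3 higher and 10 lower, with a summed ratio of 0.745. The other 87 segments together had a ratio of 0.967, and these 13 were chosen by their level in either library, which favours segments high in one of them. The 5 largest differences below 0 in CPM (Igkv1-135, Igkv4-59, Igkv8-21, Igkv3-4 and Igkv9-120) summed to −517 CPM, of −1255 CPM over all segments with lower CPM. The 5 largest differences above 0 summed to 232 CPM, of 610 CPM over all segments with higher CPM, which leaves a net difference of −646 CPM.

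The ratios of single segments were spread more widely than those of most genes. Of the 100 segments, 92 had 100 or more counts over both libraries together, the minimum for the ratios below. In the library labelled LysM-cre, 18 of these 92 (19.6%) were 2-fold or more higher and 17 (18.5%) 2-fold or more lower. Over all 14573 rows of the table with the same minimum these shares were 2.42% and 2.35%, and over 12120 protein-coding rows 1.62% and 1.65%. Scaled to the kappa V total in place of the library total, 21 segments were 2-fold or more higher and 12 lower. The log2 ratio of the segments ran from −3.18 to 3.78 with a median of −0.08 and an interquartile range of 1.43. Protein-coding rows between 100 counts and the highest kappa V total had an interquartile range of 0.28. The median counting error (SE) of a segment's log2 ratio was 0.05. A segment that passed the minimum through only 1 library had to differ. With a minimum of 1000 counts (70 segments) 12 (17.1%) were 2-fold or more higher and 10 (14.3%) lower, with an interquartile range of 1.31. Over all 9890 rows with 1000 or more counts these shares were 1.18% and 0.981%, with an interquartile range of 0.227.

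The heavy chain V segments were also widely spread. Of 92 with 100 or more counts, 12 were 2-fold or more higher and 19 lower in the Cre sample, with an interquartile range of 1.04 on the log2 scale. Whether kappa and heavy chain segments differ in their spread was not tested. The overlap of the 2 libraries, the summed smaller share of each segment, was 78.9% for kappa V and 82.4% for heavy chain V. Across the 96 kappa V segments with counts in both libraries, log10 counts had a Pearson r of 0.87 and counts a Spearman rho of 0.87. This is a description across segments, which share their library and, within families, their sequence.

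**Figure D2:**
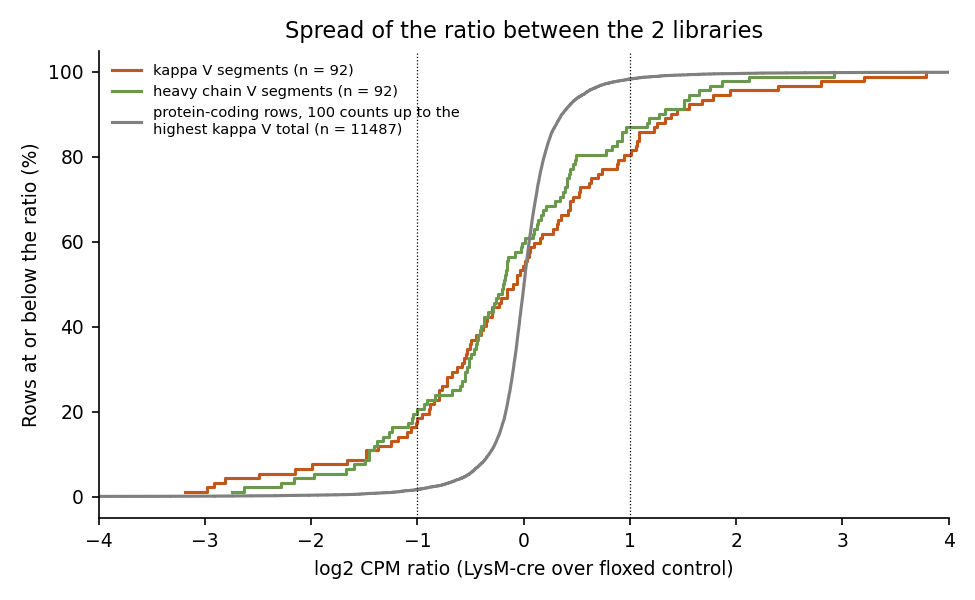
Cumulative share (%) of rows at or below each log2 CPM ratio (LysM-cre over floxed control) for 92 kappa V segments, 92 heavy chain V segments and 11487 protein-coding rows of like counts; dotted lines mark 2-fold. The axis ends at −4 and 4. Both V segment curves rise slowly across the dotted lines, while the protein-coding curve rises steeply near 0.

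**Figure D3:**
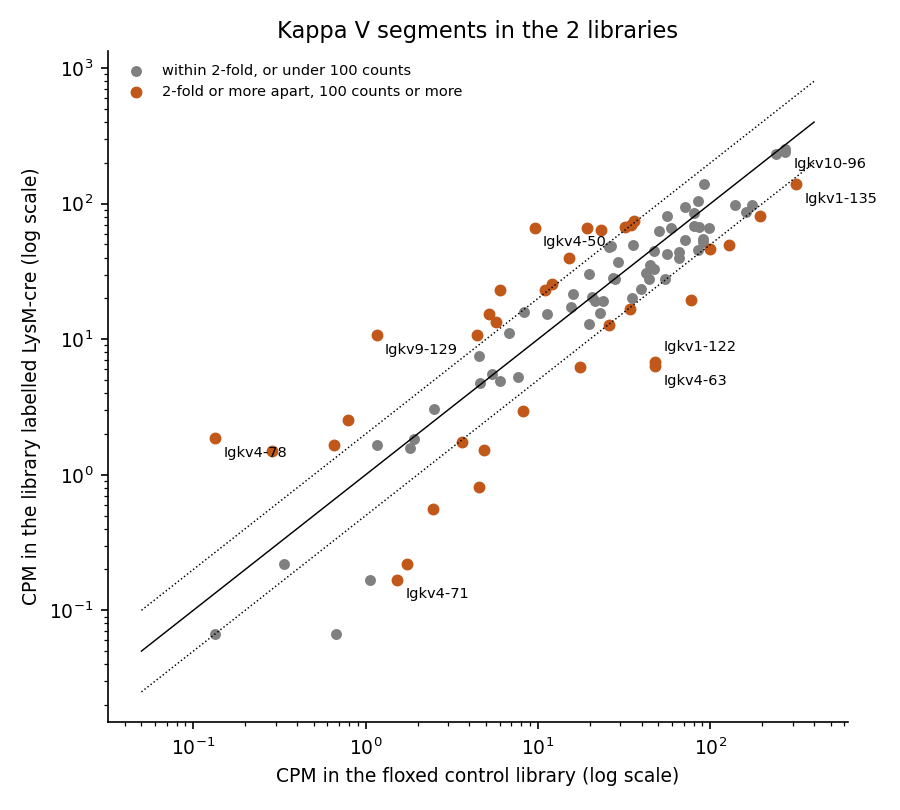
CPM of each kappa V segment with counts in both libraries (96), with the library labelled LysM-cre on the vertical and the floxed control library on the horizontal axis, both log scales. The solid line marks equal CPM and dotted lines 2-fold. Orange points are the 18 segments above and 17 below those lines with 100 or more counts, and Igkv10-96 lies near the solid line.

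Among the 8 segments with the highest ratios, Igkv4-50 and Igkv4-74 were abundant. Igkv4-50 (69700767 to 69701287) had 168 FPKM in the library labelled LysM-cre and 24.2 FPKM in the floxed control library, on 3948 counts (LysM-cre) and 570 (floxed control) (ratio 6.94, 95% interval 6.35 to 7.59). Its closest relative, Igkv4-57-1, is 91.4% identical and had 1289 counts (LysM-cre) and 956 (floxed control). Igkv4-74, which is 95.0% identical to Igkv4-61 and so uncertain, had 150 FPKM (LysM-cre) and 43.6 FPKM (floxed control) (ratio 3.44, 3.22 to 3.68). Igkv9-129, with 27.0 FPKM in the library labelled LysM-cre and 2.91 FPKM in the floxed control library, had a ratio of 9.23 (7.20 to 12.0) on 636 counts (LysM-cre) and 69 (floxed control), while its closest relative Igkv9-124 (93.2% identical) was level with 1658 counts (LysM-cre) and 1669 (floxed control). Igkv12-98, with 1380 counts (LysM-cre) and 359 (floxed control), had a ratio of 3.85, and Igkv6-29, with 908 (LysM-cre) and 309 (floxed control), one of 2.94. Igkv6-29 is 98.3% identical to Igkv6-20, and here both members of the pair were higher (ratio 2.62 for Igkv6-20). The remaining 3 rested on few counts, with Igkv4-78 at 110 (LysM-cre) and 8 (floxed control), Igkv3-3 at 89 (LysM-cre) and 17 (floxed control), and Igkv14-130 at 150 (LysM-cre) and 47 (floxed control). Igkv4-78 also has a relative at 95% identity or more (Igkv4-79), so its value is uncertain.

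Among the 8 with the lowest ratios, 3 were abundant in the floxed control library. Igkv4-63 (69377944 to 69378472) had 16.1 FPKM in the library labelled LysM-cre and 122 FPKM in the floxed control library, on 378 counts (LysM-cre) and 2860 (floxed control) (ratio 0.132, 95% interval 0.119 to 0.147). Igkv1-122 (68016718 to 68017488) had 15.9 FPKM (LysM-cre) and 111 FPKM (floxed control) (ratio 0.143, 0.128 to 0.158). It is 93.9% identical to Igkv1-110, which was close to level. Igkv14-126 had 48.2 FPKM (LysM-cre) and 192 FPKM (floxed control) (ratio 0.251, 0.235 to 0.268). The other 5 were sparse: Igkv4-71 (10 counts in the library labelled LysM-cre and 91 in the floxed control library), Igkv4-54 (LysM-cre 13, floxed control 103), Igkv11-125 (LysM-cre 48, floxed control 270), Igkv1-132 (LysM-cre 33, floxed control 147) and Igkv7-33 (LysM-cre 91, floxed control 289). Igkv4-71 and Igkv4-54 each have a relative at 95% identity or more, so their values are uncertain.

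The 8 segments under the minimum complete the set. Igkv1-131 and Igkv1-35 had no count in either library. Igkv20-101-2 had 67 counts in the library labelled LysM-cre and 0 in the floxed control library, at least 22.4-fold higher when 3 counts are taken as the limit that a count of 0 allows. That bound leaves out the counting error of the 67 counts, and the lower limit of the exact 95% interval was 17.7. Its V exon is the least like any other segment (71.6% identity with Igkv10-96). Igkv5-37 had 10 counts in the library labelled LysM-cre and 63 in the floxed control library, Igkv8-26 had 4 (LysM-cre) and 40 (floxed control), Igkv4-92 had 13 (LysM-cre) and 20 (floxed control), Igkv4-81 had 4 (LysM-cre) and 8 (floxed control), and Igkv18-36 had 0 (LysM-cre) and 6 (floxed control). The rows next to the minimum inside it were Igkv4-71 with 101 counts over both libraries and Igkv3-3 with 106, and next to it outside were Igkv5-37 with 73 and Igkv20-101-2 with 67.

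The ratios of the larger families lay closer to 1 than those of many of their members. A summed ratio always lies between the lowest and highest ratio of its members, so part of this is fixed by the summing. The segments fall into 20 families, of which 8 held 5% or more of kappa V counts in either library. Together these held 81.5% of kappa V counts in the library labelled LysM-cre and 78.7% in the floxed control library, and their ratios ran from 0.723 to 1.13. Igkv1 (10 segments) was first in both, with 17.1% in the library labelled LysM-cre and 20.2% in the floxed control library (CPM ratio 0.723, 95% interval 0.713 to 0.732). Its leading segment was Igkv1-117 in the library labelled LysM-cre and Igkv1-135 in the floxed control library. The large Igkv4 family (26 segments) held 15.8% in the library labelled LysM-cre and 15.4% in the floxed control (ratio 0.884). Within it the ratios of 24 segments ran from 0.110 (Igkv4-71) to 13.8 (Igkv4-78). Both ends rest on few counts and have a relative at 95% identity or more, so they are uncertain. Of the 24, 6 were 2-fold or more higher and 4 lower, beside 2.42% and 2.35% over all rows with the same minimum.

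The Igkv12 family held 5.41% of kappa V counts in the library labelled LysM-cre and 4.12% in the floxed control library (ratio 1.13, 95% interval 1.10 to 1.16), although Igkv12-46, its most counted segment over both, was lower (2702 counts in the library labelled LysM-cre and 5029 in the floxed control). Igkv6, led by Igkv6-15 in the library labelled LysM-cre and by Igkv6-25 in the floxed control, held 10.9% (LysM-cre) and 8.49% (floxed control) (ratio 1.10), and Igkv10, mostly Igkv10-96, held 8.53% (LysM-cre) and 6.82% (floxed control) (1.07). Igkv3, led by Igkv3-4, held 9.87% (LysM-cre) and 10.1% (floxed control) (0.837), Igkv5, led by Igkv5-43 in the library labelled LysM-cre and by Igkv5-39 in the floxed control, held 5.79% (LysM-cre) and 5.92% (floxed control) (0.838), and Igkv8, led by Igkv8-30 in the library labelled LysM-cre and by Igkv8-21 in the floxed control, held 8.06% (LysM-cre, 18550 counts) and 7.68% (floxed control, 20656 counts). A family can hold a larger share of kappa V counts and still have a CPM ratio below 1, since the kappa V total was lower. Among families with 100 or more counts, the ones past 2-fold were Igkv7 and Igkv11, both lower and each a single sparse segment (Igkv7-33 and Igkv11-125). The families under that minimum are also single segments, Igkv20-101-2 and Igkv18-36, and the interval of Igkv18-36 on its 0 (LysM-cre) and 6 (floxed control) counts reached 0.851.

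**Figure D4:**
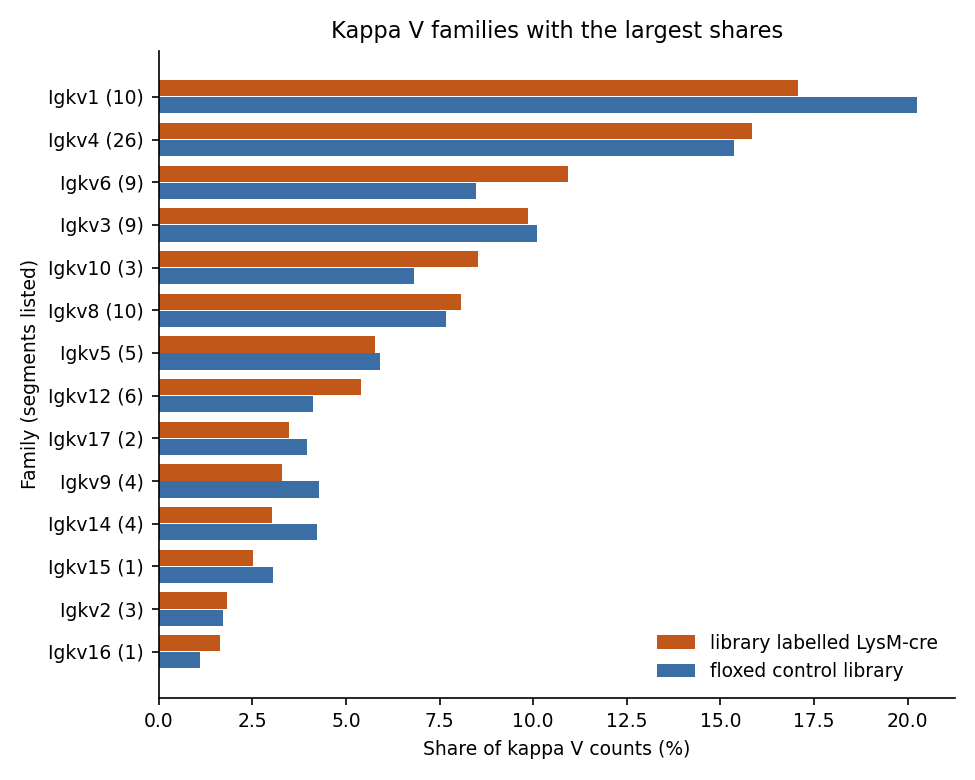
Share of kappa V counts (%) of the 14 families with the largest shares in the library labelled LysM-cre, drawn above the floxed control library for each family, with the number of listed segments in brackets. Igkv1 is first in both libraries at 17.1% (LysM-cre) and 20.2% (floxed control).

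Near-identical segments did not always go the same way. Linked at 95% identity or more, 46 segments fall into 17 groups, whose members need not all be that close to each other. The largest group holds 13 Igkv4 segments with identities down to 91.3%. Their ratios ran from 0.110 to 13.8, and their summed ratio was 0.766. In 7 groups the ratios of the members lay on both sides of 1, in 4 all were above 1 and in 6 all below. Igkv3-10 had 4109 counts in the library labelled LysM-cre and 2049 in the floxed control library (ratio 2.01), whereas Igkv3-5, 98.0% identical and printed with it, had 1966 (LysM-cre) and 2800 (floxed control) counts (ratio 0.703). Their sum had a ratio of 1.26. The most similar pair on the same side of 1 was Igkv6-29 and Igkv6-20 (summed ratio 2.70). Among the 47 segments past the minimum with no relative at this identity, 9 were 2-fold or more higher and 11 lower. Beside this, 2.42% of all rows with the same minimum were higher and 2.35% lower. The interquartile range of these segments was 1.495 on the log2 scale.

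Summed ratios differed along the locus. The locus was cut into 3 equal spans. The 26 segments of the distal span, farthest from Igkc, held 33.2% of kappa V counts in the library labelled LysM-cre and 38.3% in the floxed control library, with a CPM ratio of 0.743. The middle span (32 segments) had a ratio of 0.867 and the span nearest to Igkc (42 segments) one of 0.970. Without Igkv1-135 the distal ratio was 0.810. Medians of single segments were closer, at −0.29, −0.04 and −0.01 on the log2 scale from the distal span to the nearest. Orientation overlaps with position. The 38 segments on the strand of Igkc had a summed ratio of 0.750, and the 62 on the opposite strand one of 0.970. Igkv1-135 (ratio 0.442) is among the 38 and was not left out of their sum. Medians of single segments past the minimum were −0.29 (strand of Igkc) and 0.0015 (opposite strand) on the log2 scale. Of the 36 (strand of Igkc) and 56 (opposite strand) past the minimum, 7 and 11 were 2-fold or more higher and 9 and 8 lower. Over all rows with the same minimum the shares were 2.42% higher and 2.35% lower.

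**Figure D5:**
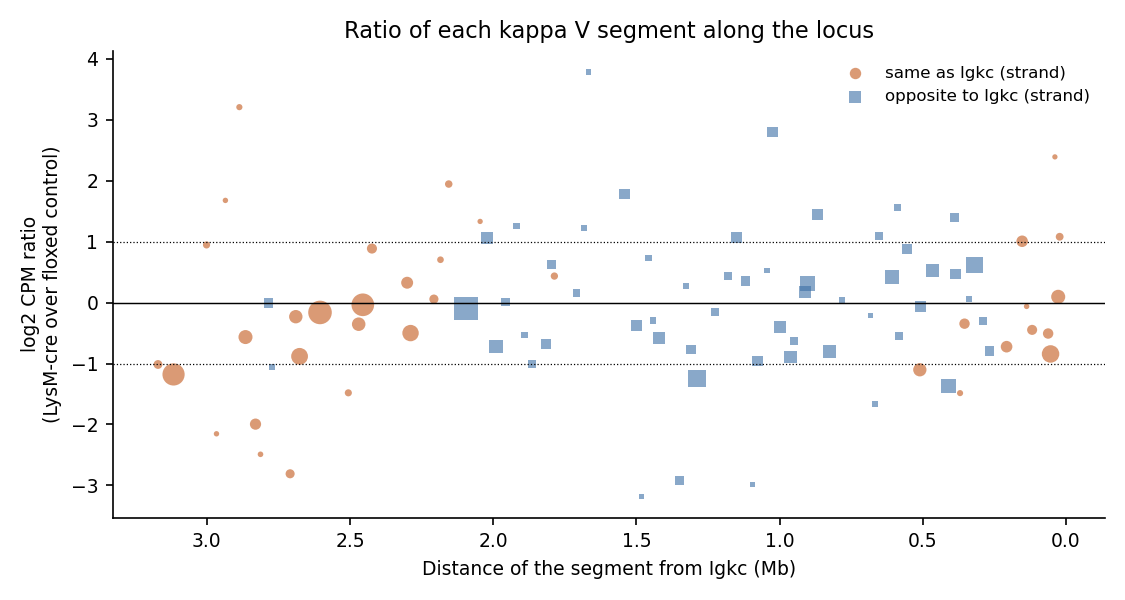
log2 CPM ratio (LysM-cre over floxed control) of the 92 segments with 100 or more counts against their distance from Igkc in Mb, the distal end at the left; circles lie on the strand of Igkc, squares on the opposite strand, and area grows with the counts over both libraries. Dotted lines mark 2-fold. Points lie on both sides of 0 along the whole locus.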

How the data were processed

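The 2 libraries share a single deposited gene table, whose headers name the columns. Its count columns, per the file headers, are the authors' own and hold whole, unscaled numbers. Its FPKM columns were deposited beside them, scaled for length and depth, with 0.0001 wherever the count was 0, read here as 0. The submitters' processing notes name build mm10 and the tools cutadapt 1.9, HISAT2 2.0.4, StringTie 1.3.4d, DESeq2 and edgeR, without their roles. How strand and multi-mapping reads were treated is not stated in those notes. Another 8 columns belong to 4 libraries without labels and stayed out of every step. The members and lists were chosen with earlier results of these data known.

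CPM ratios were computed from counts and library totals, with exact conditional (Clopper-Pearson) 95% intervals. These cover counting error only, because each genotype had 1 library. Reads copied by PCR do not count separate molecules, so the intervals may be too narrow even for counting error. Segments needed 100 counts over both libraries, and a 2-fold threshold stood in for a test, which 1 library per genotype does not allow. The segments named are the 10 most counted in each library, the 8 highest and 8 lowest by ratio, those at 0 in 1 library with 20 or more counts in the other, and the leaders of families with 5% or more of counts. Segments named beside these as relatives, and those under the minimum, were chosen after their values were seen. All 100 segments were found in GENCODE M21 with the table's coordinates, and printed sequences are from its transcripts (GRCm38, the build of mm10). V exons were aligned pairwise. TMM factors (edgeR 4.0.16, R 4.3.3) were 0.999 for the library labelled LysM-cre and 1.00 for the floxed control library. One row of another kind overlapped a segment (Gm42889 at Igkv2-137) and held 1 count in each library. The procedure was tested on simulated data that held counting error only. Those data had no variation between replicates and no reads shared between near-identical segments, so the test does not check for either. The software was Biopython 1.88, matplotlib 3.10.9, scipy 1.17.1, pandas 2.3.3, numpy 2.4.6 and Python 3.11.15.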

Additional observations from a re-analysis of the deposited data

How the results depend on the processing

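No paired analysis was possible because each genotype had 1 library, and for the same reason no replicate could be left out. Of 65 alternative values, 39 stayed close to the reported value and 26 did not. Close meant within the counting interval for shares, ratios and effective numbers, and within 1.5 times a reported count of segments. For the median and interquartile range of the log2 ratio it meant within 0.10. That is the median 95% counting half-width of a single segment, not the counting error of either statistic. No ratio, and no median log2 ratio, moved to the other side of level. The kappa V ratio of 0.857 was 0.977 against immunoglobulin counts and 0.850 in FPKM. The share of the most counted segment (6.55% in the library labelled LysM-cre and 6.94% in the floxed control library) was 6.77% (LysM-cre) and 6.57% (floxed control) in FPKM, 12.3% (LysM-cre) and 11.3% (floxed control) with near-identical segments summed, and 17.1% (LysM-cre) and 20.2% (floxed control) by family. The leading share, larger in the floxed control library in counts and by family, was larger in the library labelled LysM-cre in FPKM and with near-identical segments summed. The effective number in the library labelled LysM-cre (39.4) was 40.3 in FPKM, 41.4 without each library's most counted segment, 22.8 with near-identical segments summed and 9.92 by family. In the floxed control library (34.9) it was 35.8, 36.3, 22.1 and 9.55 under the same settings. The counts of segments past the threshold (18 higher and 17 lower) were 7 and 8 at 3-fold. Lower segments numbered 28 at 1.5-fold and 10 with 1000 counts or more, and with near-identical segments summed 11 were higher and 13 lower. Higher segments numbered 25 at 1.5-fold. Lower segments outnumbered higher ones by only a few at 1.5-fold, at 3-fold and with near-identical segments summed. Lower ones also led with no minimum among segments with counts in both libraries (18 higher and 19 lower). Shares over all rows at 1.5-fold and 3-fold are not given here. At 2-fold those shares were 2.42% higher and 2.35% lower with 100 or more counts, and 1.18% and 0.981% with 1000 or more. With a minimum of 20 counts the split was level (19 and 19), and in FPKM 17 were higher and 15 lower. Among segments with no near-identical relative (chosen after seeing the data), 9 were higher and 11 lower, with fewer segments compared. The interquartile range (1.43) was 1.31 with 1000 counts or more and 1.29 with near-identical segments summed. Scaled to the kappa V total, 21 segments were 2-fold or more higher and 12 lower, a shift of the split towards higher segments. The cause of the other shifts was not tested.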

Other observations

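The kappa V pseudogene rows, copies that cannot encode a chain, held 181 counts in the library labelled LysM-cre and 194 in the floxed control library (ratio 0.935, 95% interval 0.759 to 1.15), which is 0.000305% (LysM-cre) and 0.000326% (floxed control) of all counts. Of the 3 lambda V segments, Iglv1 had 345 FPKM in the library labelled LysM-cre and 491 FPKM in the floxed control library (ratio 0.702, 0.683 to 0.721) and Iglv2 had 136 FPKM (LysM-cre) and 216 FPKM (floxed control) (0.633, 0.605 to 0.661). Iglv3 went the other way with 49.3 FPKM (LysM-cre) and 44.4 FPKM (floxed control) (1.11, 1.02 to 1.20). The lambda constant genes were lower, with ratios of 0.705 for Iglc1, 0.747 for Iglc2 and 0.847 for Iglc3. Among heavy chain constant genes, Ighm, the constant gene of IgM, had a ratio of 0.477 and Igha, that of IgA, one of 0.987, against 0.944 for Igkc, which pairs with all heavy chain classes.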
